A study of Mus musculus with 6 samples.

Results

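Transcripts of 9 tight junction genes were followed in mouse sciatic nerve at postnatal day 3: the claudin genes Cldn19, Cldn11, Cldn12, Cldn1 and Cldn5, the scaffold gene Tjp1, the occludin family genes Ocln and Marveld2, and the junctional adhesion gene F11r. They were found by gene symbol among the 54838 rows of a table of fragment counts per gene, where each symbol matched 1 row, and all 9 passed the low-count filter that left 18775 genes to test. Mutant nerves came from 3 libraries (cKO) with a Cre recombinase under the name of Cnp, a gene of myelinating glia, and the genotype Actl6afl/fl, and were set against 3 wild-type (WT) libraries. Strain is given as C57 Bl for every library, and no source used here gives the alleles of the WT nerves beyond that name. Actl6a codes for BAF53a, which belongs to chromatin remodelling complexes and resembles actin. Whether nerves of 1 animal or of several went into a library is not stated, so the p-values measure the spread between libraries, part of which may be technical. A whole nerve also holds fibroblasts, vessels, perineurium and blood cells, and fewer cells of a type and less RNA per cell cannot be told apart in it.

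Tight junctions seal the gap between neighbouring membranes. Claudins span the membrane and form the seal, occludin and its relatives (tricellulin, MarvelD3) and the junctional adhesion molecules lie beside them, and scaffold proteins such as ZO-1 tie them to actin. In peripheral nerve such junctions occur between the cells of the perineurium, between the endothelial cells of the blood-nerve barrier, and within the Schwann cell itself, where its own membrane layers meet at paranodes, incisures and mesaxons. The question was which of these transcripts differ between the mutant and the wild-type nerve.

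Total counts ran from 31404107 to 32674317 in cKO libraries and from 33084003 to 36760296 in WT libraries. In CPM, fragment counts scaled to library size, the summed level of 9 myelinating Schwann cell markers ran from 6294 to 12565 in cKO and from 57236 to 61655 in WT libraries, so both groups held myelinating nerve. Actl6a itself averaged 43.8 ± 3.29 CPM in cKO and 49.4 ± 3.61 CPM in WT nerves (SD, n = 3 each) and was not called (log2 fold change -0.17, edgeR adjusted p = 0.243). Leaving out cKO replicate 2, the library described next, it was called lower (-0.24, edgeR adjusted p = 0.0487). Its count covers all exons and, over 11.6% of them, an antisense neighbour (Mrpl47), so it checks the labels only weakly. The library cKO replicate 2 stood apart. Its 9 skeletal muscle markers summed to 63128 CPM, against 4165 and 4979 CPM in the other cKO libraries and 3401 to 4912 CPM in WT libraries. Values of the 9 genes are given with and without this library where it moves them. Erythroid markers summed to 6745 to 21868 CPM in cKO and to 2725 to 3940 CPM in WT libraries.

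Of the 9 genes, 3 fell in cKO nerves and none was called higher by edgeR's quasi-likelihood test, with a gene called where its p, adjusted over all genes tested, was below 0.05. The 3 were Cldn19, Cldn11 and Cldn12. Across all genes tested 18.8% were called, 10.3% lower and 8.55% higher, so the 9 were called at 33.3%, a share that rests on 3 genes. At an unadjusted edgeR p below 0.05 the counts were 1 higher and 4 lower, where 3224 of all 18775 genes were higher and 3242 lower. DESeq2 called 1 higher (Ocln) and 4 lower (with Tjp1), where it called 2125 of 20443 genes higher and 2320 lower. The 9 genes had a median log2 fold change (cKO over WT) of -0.05, against 0.04 over all genes tested. Groups did not overlap for 5 of the 9 genes, or 55.6%, against 42.7% of all genes tested. Without cKO replicate 2, edgeR called 3 of the 9 higher (Cldn1, Ocln and F11r) and 4 lower (Tjp1 joining the 3), where 35.4% of all genes were called, 17.8% higher and 17.6% lower.

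**Figure D1:**
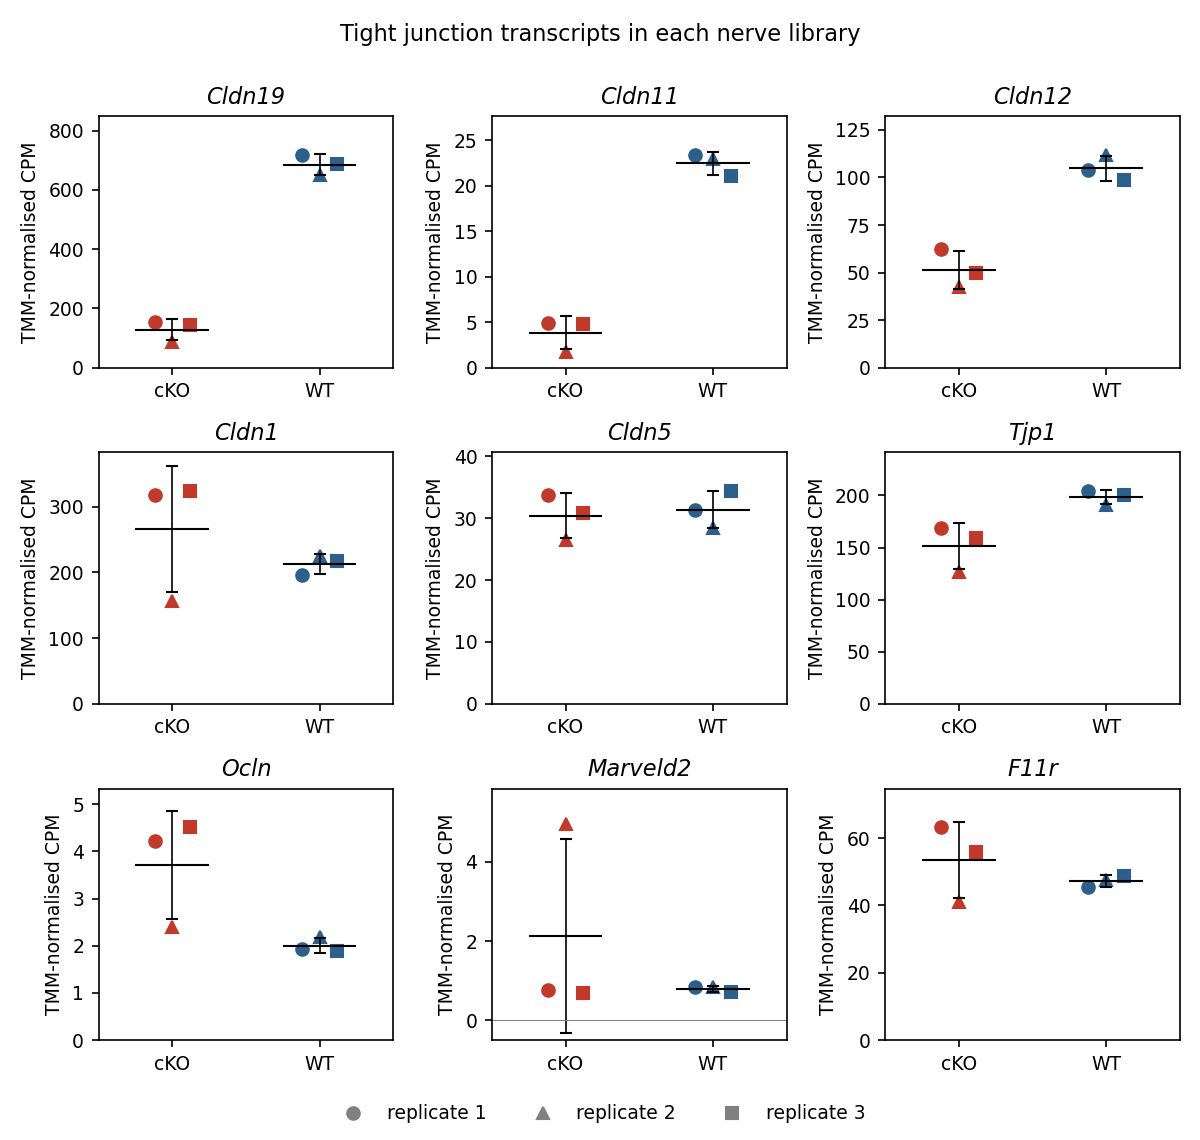
TMM-normalised CPM (vertical axes, each from its own scale) of the 9 genes in the 3 cKO and 3 WT libraries; symbols mark replicates, bars the mean and SD. Cldn19, Cldn11 and Cldn12 lay lower in every cKO library than in any WT library, while cKO replicate 2 was the lowest cKO library for 8 genes and the highest for Marveld2 (4.95 CPM).

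Cldn19 encodes the claudin that Schwann cells need to form their own tight junctions. The gene (ENSMUSG00000066058, GRCm38 chromosome 4, 119255414 to 119262438) had 153, 87.1 and 143 CPM in cKO libraries, against 719, 651 and 687 CPM in WT libraries. Every cKO library lay far below every WT library, and the spread within each group was small beside the gap. Its means were 128 ± 35.6 CPM in cKO and 686 ± 34.2 CPM in WT (SD, n = 3 each), a log2 fold change of -2.42 (SE 0.22, 95% interval -2.94 to -1.90, edgeR adjusted p = 0.00115). That is 5.36-fold lower in cKO nerves. Exons of the gene overlap an antisense gene, Gm12927, over 2.11% of their bases, and counting did not use strand.

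Myelin transcripts lay beside Cldn19. All 9 myelinating Schwann markers fell, with a median log2 fold change of -2.28, among them Drp2 of the periaxin complex (-2.23). Relative to the mean log2 CPM of these 9 markers, Cldn19 stood at -1.54, -1.40 and -1.46 in cKO libraries and at -1.27, -1.36 and -1.37 in WT libraries. The groups did not overlap, and the difference of -0.14 on the log2 scale had an exact two-sided permutation p of 0.10, the smallest that 3 libraries against 3 allow. Markers of the Schwann lineage as a whole had a median log2 fold change of -0.57, and 3 of 7 fell and 1 rose. Of all genes tested, 10.3% were called lower and 8.55% higher. S100b, which binds calcium and marks Schwann cells, fell (-2.41), and Foxd3, a transcription factor of neural crest and glial precursors, fell as well (-0.87), a call lost without WT replicate 1 or 3. Summed, the 7 markers ran from 479.7 to 869 CPM in cKO and from 1068 to 1110 CPM in WT libraries, and their part in the Cldn19 result was not tested.

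Against 14500 genes whose log2 CPM averaged 1 or more, the profile of Cldn19 over the 6 libraries, centred on its own mean, was closest to those of Cnp, Celsr2 and Prx, at root mean square distances of 0.062, 0.063 and 0.064 on the log2 scale. Cnp had a log2 fold change of -2.40 and Prx, the periaxin gene of the outer myelin surface, -2.31. Celsr2, an adhesion receptor of the cadherin superfamily, had -2.41. These genes were picked by that distance over the same libraries, so fold changes near that of Cldn19 were built in.

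Cldn11 encodes the claudin of central myelin and of the testis barrier. In nerve (ENSMUSG00000037625, chromosome 3, 31149920 to 31164324) it had 4.89, 1.76 and 4.86 CPM in cKO libraries, from 161, 49 and 170 fragments, against 23.4, 22.9 and 21.1 CPM in WT libraries. All cKO values lay well below all WT values. The means of 3.84 ± 1.80 CPM in cKO and 22.5 ± 1.25 CPM in WT (SD, n = 3 each) gave a log2 fold change of -2.54 (SE 0.37, 95% interval -3.45 to -1.64, edgeR adjusted p = 0.0074), or 5.83-fold lower in cKO. It was -2.21 when cKO replicate 2 was left out.

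Cldn12 encodes a claudin whose tail lacks the PDZ-binding end by which most claudins hold ZO proteins. The gene (ENSMUSG00000046798, chromosome 5, 5489537 to 5514958) had 62.2, 42.4 and 50.002 CPM in cKO libraries and 104, 112 and 98.7 CPM in WT libraries. Its groups were again apart, by less than those of Cldn19 and Cldn11. Means were 51.5 ± 9.99 CPM in cKO and 105 ± 6.70 CPM in WT (SD, n = 3 each), a 2.04-fold lower level in cKO (log2 fold change -1.03, SE 0.15, 95% interval -1.37 to -0.68, edgeR adjusted p = 0.00527). With cKO replicate 2 left out it was -0.90 (95% interval -1.12 to -0.68, edgeR adjusted p = 2.06e-05). The calls of Cldn19, Cldn11 and Cldn12 held in each of the 6 fits that left out 1 library and in the 4 other settings tried.

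The bases upstream of the first annotated start of these 3 genes are shown because they are the members that moved together, taken from RefSeq for GRCm38.p6 and cut so that they end at or shortly before the first base of the deposited gene model. They are 223 bases for Cldn19 (chr4:119255191-119255413, plus strand), 250 for Cldn11 (chr3:31149670-31149919, plus strand) and 250 for Cldn12 (chr5:5514977-5515226, minus strand), 5′ to 3′, with capitals at matches to the GC box GGGCGG on either strand.
Cldn19: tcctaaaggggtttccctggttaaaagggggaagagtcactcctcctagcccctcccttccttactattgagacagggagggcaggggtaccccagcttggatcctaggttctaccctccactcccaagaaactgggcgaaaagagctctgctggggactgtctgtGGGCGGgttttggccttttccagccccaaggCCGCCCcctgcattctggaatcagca
Cldn11: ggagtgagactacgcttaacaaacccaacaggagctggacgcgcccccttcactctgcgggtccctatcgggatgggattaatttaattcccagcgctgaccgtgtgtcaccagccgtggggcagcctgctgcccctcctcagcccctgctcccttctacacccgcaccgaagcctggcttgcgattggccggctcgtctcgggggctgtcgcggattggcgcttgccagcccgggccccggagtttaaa
Cldn12: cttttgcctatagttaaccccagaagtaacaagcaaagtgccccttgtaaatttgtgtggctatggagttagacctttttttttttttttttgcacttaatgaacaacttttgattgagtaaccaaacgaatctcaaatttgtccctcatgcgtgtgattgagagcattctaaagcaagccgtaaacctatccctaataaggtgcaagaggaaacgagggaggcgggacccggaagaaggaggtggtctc
Cldn19 held 2 GC boxes in this window, beginning 57 and 26 bases before the start, and Cldn11 and Cldn12 held none of the 7 motifs searched. The motifs were GCGNGGGCG (early growth response factors), ACAAAG and ACAATG (SOX factors), GGAATG (TEAD factors), CAGGTG (the E-box of Snail factors), GGGCGG and TATAAA, each on both strands. The E-box occurs in 17.1% of the 250-base windows before 27025 annotated starts, the GC box in 33.0%, TATAAA in 13.0%, GGAATG in 12.6%, ACAAAG in 16.5%, ACAATG in 10.9% and GCGNGGGCG in 4.63%, a motif that can share bases with the GC box. The Cldn19 window is shorter than those behind these shares. GC made up 57.4% of the Cldn19 window, 63.6% of that of Cldn11 and 42.0% of that of Cldn12, with 3, 19 and 6 CG dinucleotides. A missing match says only that these letters are not in this window.

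Cldn1 encodes a claudin of the perineurial seal. It (ENSMUSG00000022512, chromosome 16, 26356642 to 26371841) had 318, 156 and 324 CPM in cKO libraries and 195, 225 and 218 CPM in WT libraries. Replicates 1 and 3 of cKO lay above all WT libraries, and cKO replicate 2 below them, so the groups overlapped. The means were 266 ± 95.4 CPM in cKO and 213 ± 15.4 CPM in WT (SD, n = 3 each), with a log2 fold change of 0.32 (95% interval -0.34 to 0.98, edgeR adjusted p = 0.433), not called. With cKO replicate 2 left out, Cldn1 was called, at 0.59 (95% interval 0.42 to 0.77, edgeR adjusted p = 8.77e-05).

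Perineurial markers went both ways. Of 6, Lypd2 (1.06) and the netrin gene Ntn4 (0.54) rose and Itgb4, an integrin subunit that Schwann cells also express, fell (-1.07), with a list median of 0.27. Among all genes tested, 8.55% were called higher and 10.3% lower. The calls of Lypd2 and Ntn4 were lost without any 1 WT library and without cKO replicate 3. Their sums ran from 125 to 187 CPM in cKO and from 169 to 188 CPM in WT libraries, with the lowest again in cKO replicate 2. Set against the mean log2 CPM of these markers, Cldn1 stood at 4.42, 3.88 and 4.27 in cKO libraries and at 3.95, 4.08 and 4.21 in WT libraries, a difference of 0.11 (exact two-sided permutation p = 0.6) that was -0.0024 without cKO replicate 1. The profile closest to that of Cldn1 over the 6 libraries belonged to Cxadr, which encodes the coxsackievirus and adenovirus receptor, itself a tight junction protein, at a distance of 0.031. Cxadr had 71.7, 35.5 and 71.3 CPM in cKO libraries, against 42.1, 49.3 and 46.7 CPM in WT libraries. It was picked for its nearness to Cldn1 over these same libraries, so a similar change, with and without cKO replicate 2, was built in. It was not called with all libraries (0.37, edgeR adjusted p = 0.364) and was called when cKO replicate 2 was left out (0.63, edgeR adjusted p = 7.42e-05). Antisense genes overlap 9.46% of its exonic bases. The next profiles, picked in the same way, were those of Gm48878 (0.050) and Bex2 (0.057), with log2 fold changes of 0.39 and 0.28. Neither was called with all libraries and both were called without cKO replicate 2 (0.66 and 0.54, edgeR adjusted p = 0.0225 and 0.0393). For Bex2, 22.2% of its 50-base words occur in other genes, so its count is uncertain.

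Cldn5 encodes the claudin of endothelial barriers. The gene (ENSMUSG00000041378, chromosome 16, 18776847 to 18778262) had 33.7, 26.5 and 30.9 CPM in cKO libraries and 31.4, 28.4 and 34.4 CPM in WT libraries. These values overlapped throughout. Means were 30.4 ± 3.63 CPM in cKO and 31.4 ± 3.02 CPM in WT (SD, n = 3 each), a log2 fold change of -0.05 with a 95% interval of -0.34 to 0.25 (edgeR adjusted p = 0.813), and its sign turned without cKO replicate 2 (0.04) or WT replicate 3 (0.02). Of 12 endothelial markers 1 was called, where 8.55% of all genes were called higher and 10.3% lower. The angiopoietin receptor gene Tek rose (0.80), while Esam, an adhesion molecule of endothelial junctions, had 0.24 and was not called (edgeR adjusted p = 0.0965). Vwf (-0.88) and Tie1 (-0.17) lay lower in every cKO library than in any WT library. Neither was called (edgeR adjusted p = 0.237 and 0.222). The median of the 12 markers was 0.12, and their sums ran from 820.5 to 889 CPM in cKO and from 752 to 789.5 CPM in WT libraries. Relative to these markers Cldn5 stood at -0.72, -1.04 and -0.83 in cKO and at -0.78, -0.87 and -0.60 in WT libraries (difference -0.11, exact two-sided permutation p = 0.5). Cfap43, Por and Usf1 had the profiles closest to Cldn5, at distances of 0.035, 0.037 and 0.043. Their log2 fold changes were -0.04, -0.05 and -0.002, none called, and near that of Cldn5 by the way they were picked. For Usf1, 17.2% of its words occur in other genes.

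**Figure D2:**
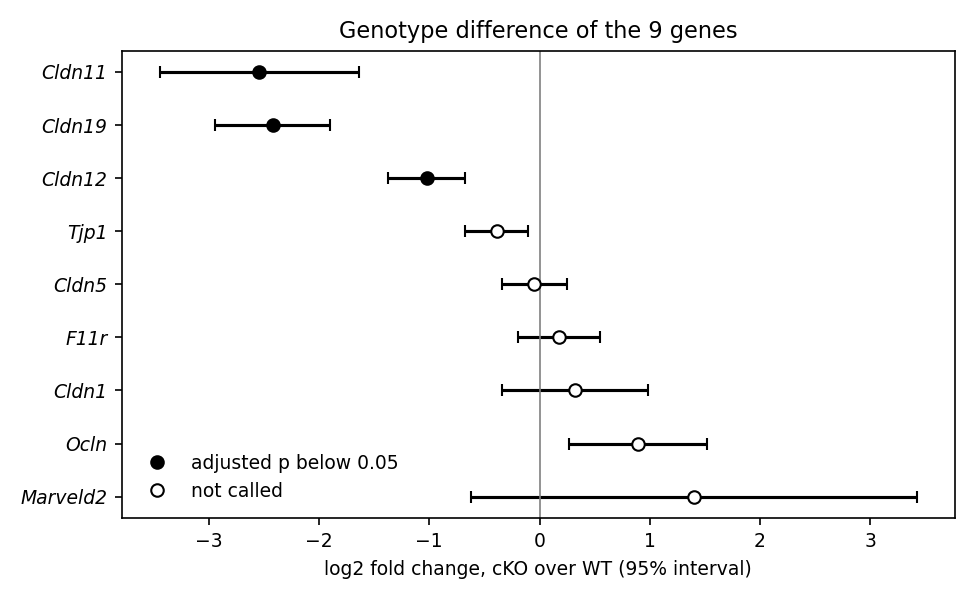
Log2 fold change, cKO over WT, of the 9 genes from edgeR on all 6 libraries (points), with 95% intervals (bars); filled points were called. Cldn11, Cldn19 and Cldn12 are filled, with intervals below 0, and the interval of Marveld2 is the widest, from -0.62 to 3.42.

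Tjp1 encodes ZO-1, the scaffold that binds claudin tails. It (ENSMUSG00000030516, chromosome 7, 65296165 to 65527781) had 169, 127 and 159 CPM in cKO libraries, against 204, 191 and 200.3 CPM in WT libraries. All 3 cKO values lay below all WT values. With means of 152 ± 22.0 CPM in cKO and 199 ± 6.75 CPM in WT (SD, n = 3 each), the log2 fold change of -0.39 (95% interval -0.68 to -0.10) missed the threshold in edgeR (adjusted p = 0.0679). It was called by DESeq2 (adjusted p = 0.0328), by edgeR on unfiltered genes (adjusted p = 0.0489) and by edgeR without cKO replicate 2 (-0.28, adjusted p = 0.0122).

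Ocln encodes occludin. It (ENSMUSG00000021638, chromosome 13, 100496507 to 100552718) was scarce, with 4.22, 2.40 and 4.51 CPM in cKO libraries from 139, 67 and 158 fragments, against 1.93, 2.19 and 1.89 CPM in WT libraries from 64, 76 and 69 fragments. Its cKO values lay above its WT values, those of cKO replicate 2 only just. Means of 3.71 ± 1.14 CPM in cKO and 2.001 ± 0.165 CPM in WT (SD, n = 3 each) gave a log2 fold change of 0.89 (95% interval 0.27 to 1.52, edgeR adjusted p = 0.0577). DESeq2 called it (adjusted p = 0.0228), as did edgeR on unfiltered genes (adjusted p = 0.0408) and without cKO replicate 2 (1.12, edgeR adjusted p = 0.000361). Against the endothelial markers, Ocln stood at -3.70, -4.47 and -3.59 in cKO libraries and at -4.77, -4.53 and -4.74 in WT libraries. That difference of 0.76 had an exact two-sided permutation p of 0.10, the smallest possible here.

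Epithelial markers were low and mixed. Of 7 tested, the keratin genes Krt18, Krt8 and Krt1 rose and Cdh1, the E-cadherin gene, which Schwann cells also express, fell (-1.10). Among all genes tested, 8.55% were called higher and 10.3% lower. The calls of Krt18 and Cdh1 were lost without any 1 WT library. Krt18 (1.96) stood at 2.32 ± 1.36 CPM in cKO and 0.595 ± 0.0652 CPM in WT (SD, n = 3 each). Epcam, an epithelial adhesion gene, did not pass the filter, at 0.273, 0.323 and 0.657 CPM in cKO and 0.271, 0.202 and 0.109 CPM in WT libraries. Summed levels of the 8 listed genes ran from 43.0 to 66.1 CPM in cKO and from 89.3 to 100.2 CPM in WT libraries, most of it Cdh1, and their part in the Ocln values was not tested.

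Marveld2 encodes tricellulin, which closes the points where 3 cells meet. It (ENSMUSG00000021636, chromosome 13, 100595957 to 100616971) had 0.760, 4.95 and 0.686 CPM in cKO libraries, from 25, 138 and 24 fragments, and 0.842, 0.836 and 0.711 CPM in WT libraries, from 28, 29 and 26 fragments. Only cKO replicate 2 was high, and the other 5 libraries were alike. The log2 fold change of 1.40 (95% interval -0.62 to 3.42, edgeR adjusted p = 0.278) was -0.14 without that library (95% interval -0.81 to 0.53), so the sign rested on 1 library, the one rich in muscle transcripts. The part of muscle RNA in it was not tested.

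F11r encodes JAM-A, an immunoglobulin-like adhesion molecule of epithelia, endothelia and platelets. The gene (ENSMUSG00000038235, chromosome 1, 171437535 to 171464603) had 63.3, 41.1 and 55.9 CPM in cKO libraries, against 45.4, 47.6 and 48.8 CPM in WT libraries. Replicates 1 and 3 of cKO lay above all WT libraries and replicate 2 below them. The means were 53.4 ± 11.3 CPM in cKO and 47.3 ± 1.69 CPM in WT (SD, n = 3 each), with a log2 fold change of 0.18 (95% interval -0.19 to 0.55, edgeR adjusted p = 0.447). Without cKO replicate 2 it was 0.33 (edgeR adjusted p = 0.00786).

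Levels of different genes were compared per exonic length, as TPM, which scales a count by length and by library, within each library. In cKO nerves Cldn1 led, at 157 ± 68.8 TPM, ahead of Cldn19 at 85.0 ± 30.7 TPM (SD, n = 3), in 3 of 3 libraries. In WT nerves Cldn19 led, at 487 ± 37.8 TPM, ahead of Cldn1 at 133 ± 5.95 TPM (SD, n = 3), again in 3 of 3. Below these, Cldn5 (60.0 TPM), F11r (56.5), Tjp1 (54.5) and Cldn12 (34.1) followed in cKO nerves, where F11r and Tjp1 did not keep one order in all libraries. In WT nerves the next were Tjp1 (77.0 TPM), Cldn12 (75.0), Cldn5 (67.0) and F11r (53.7), with Tjp1 against Cldn12 and Cldn12 against Cldn5 each in order in 2 of 3 libraries. Cldn11, Ocln and Marveld2 closed both orders, at 5.90, 2.50 and 1.61 TPM in cKO and 36.4, 1.43 and 0.713 TPM in WT nerves. In cKO, Ocln exceeded Marveld2 in 2 of 3 libraries.

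**Figure D3:**
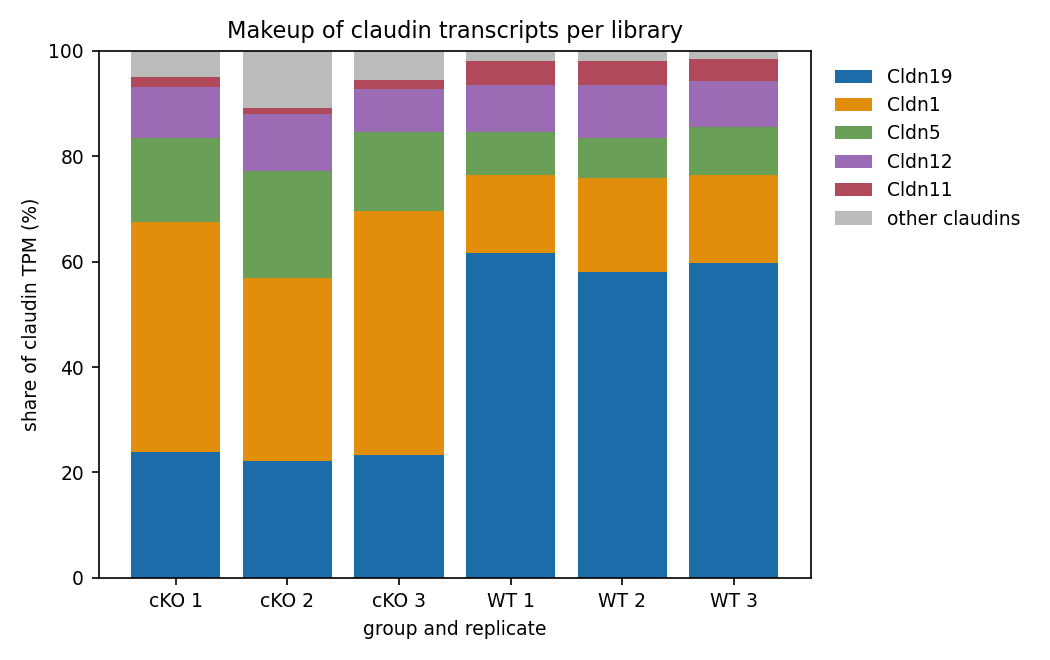
Share of the summed TPM of all claudin genes (vertical axis, percent) held by each of the 5 claudin genes described and by the other claudins together, in each library. Cldn19 fills 22.1 to 23.9% in cKO and 58.1 to 61.7% in WT libraries.

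The claudin pool thus had another makeup in the mutant nerve. Over the 35 rows with a numbered claudin symbol, 10 of them without a fragment in any library, the summed level was 427, 225 and 445 TPM in cKO libraries and 857, 782 and 799 TPM in WT libraries. Cldn19 held 23.9, 22.1 and 23.3% of that sum in cKO, against 61.7, 58.1 and 59.8% in WT. The share of Cldn1 was 43.7, 34.9 and 46.3% in cKO and 14.8, 17.7 and 16.7% in WT libraries. Cldn5 held 15.1 to 20.2% in cKO and 7.62 to 9.02% in WT. Cldn12 held 8.17 to 10.8% in cKO and 8.67 to 10.1% in WT, ranges that overlapped although its level fell. These shares are a description without a test, and a share can grow only because another shrinks.

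**Figure D4:**
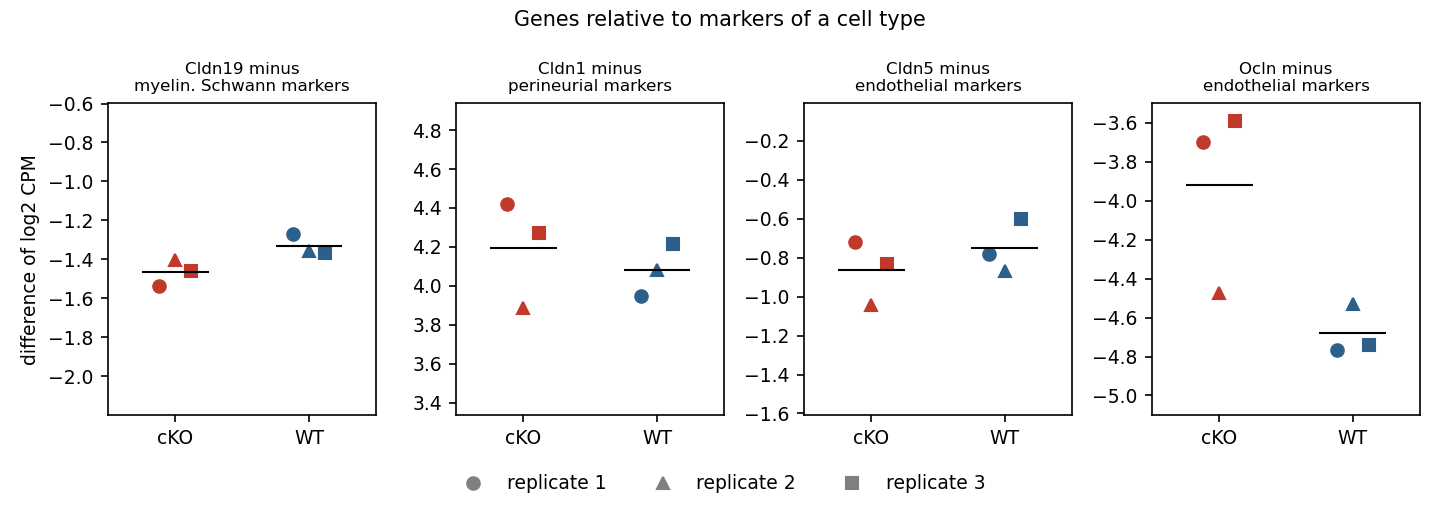
Log2 CPM of Cldn19, Cldn1, Cldn5 and Ocln minus the mean log2 CPM of markers of a cell type (vertical axes, each spanning the same range), in 3 cKO and 3 WT libraries; horizontal bars are group means. Groups are apart for Cldn19 (difference -0.14) and Ocln (0.76) and overlap for Cldn1 (0.11) and Cldn5 (-0.11).

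Most of the other claudins were scarce in nerve. Of 26 found in the table, 10 passed the filter, and of these edgeR called 1, the claudin-domain gene Cldnd1, which fell (-0.44, to 67.6 ± 6.15 CPM in cKO, against 91.8 ± 1.46 CPM in WT; SD, n = 3 each). None was called higher, where 10.3% of all genes were called lower and 8.55% higher. At an unadjusted edgeR p below 0.05, 5 were higher and 1 lower, where 3224 of all 18775 genes were higher and 3242 lower. DESeq2 called 1 higher, Cldn2, and 1 lower of 11 it tested, where it called 2125 of 20443 genes higher and 2320 lower. The call of Cldnd1 was lost without any 1 WT library. Cldn10, Cldn13, Cldn3 and Cldn7 were next by p, with log2 fold changes of 0.83, 1.14, 0.97 and 1.63, and averaged 0.449 to 1.67 CPM in cKO and 0.144 to 0.943 CPM in WT nerves. Their values were above all WT values in every cKO library and none passed (edgeR adjusted p from 0.066 to 0.132). They were picked by p, and groups did not overlap for 42.7% of all genes. For Cldn7 the gap was minimal, 0.323 CPM in cKO replicate 2 against 0.317 CPM in WT replicate 2. Cldn2, a claudin of cation-permeable epithelia, and Cldn15 were high in cKO replicate 2, as Marveld2 was: Cldn2 had 1.03, 5.35 and 0.771 CPM in cKO and 0.572, 0.634 and 0.520 CPM in WT libraries. Without cKO replicate 2, 4 of the 10 were called higher and 1 lower, where 17.8% of all genes were called higher and 17.6% lower.

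Genes of the wider junction complex moved in both directions. Of 31 listed, 30 were tested, 8 fell, 5 rose and 17 were not called, where 10.3% of all genes were called lower and 8.55% higher. Their median log2 fold change was -0.02, against 0.04 over all genes. Without cKO replicate 2, 11 were called higher and 12 lower, where 17.8% of all genes were called higher and 17.6% lower. Marveld3, the remaining member of the occludin family, fell the most: it had 0.729, 0.395 and 0.343 CPM in cKO libraries, against 4.93, 4.03 and 4.35 CPM in WT libraries (log2 fold change -3.17, SE 0.31, edgeR adjusted p = 0.00148). All of its cKO values lay far below all WT values.

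Of the scaffold genes, Tjp3 (ZO-3) was scarce and not called (0.88, edgeR adjusted p = 0.0858). Magi2 and Magi1, scaffolds with several PDZ domains, fell (-1.37 and -0.69), while Magi3 was not called (0.44, edgeR adjusted p = 0.068). Mpdz, a further such scaffold, fell (-0.52). Jam3, which encodes JAM-C, a junctional adhesion molecule present in Schwann cells, fell to 100.2 ± 21.5 CPM in cKO, against 218 ± 9.73 CPM in WT (SD, n = 3 each; -1.12, edgeR adjusted p = 0.00573), but 36.2% of its exonic bases overlap an antisense gene, Gm48796, and counting did not use strand. The polarity genes Pard6b (-1.27) and Pard6g (-0.42) fell. Crb3, a polarity gene of apical membranes, and Cgn, which encodes cingulin, were scarce and not called (-0.98 and 0.83), and 17.2% of the words of Cgn occur in other genes. Without cKO replicate 2, edgeR called Tjp3 (1.05), Magi3 (0.57) and Cgn (1.04) higher and Crb3 (-1.34) lower.

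**Figure D5:**
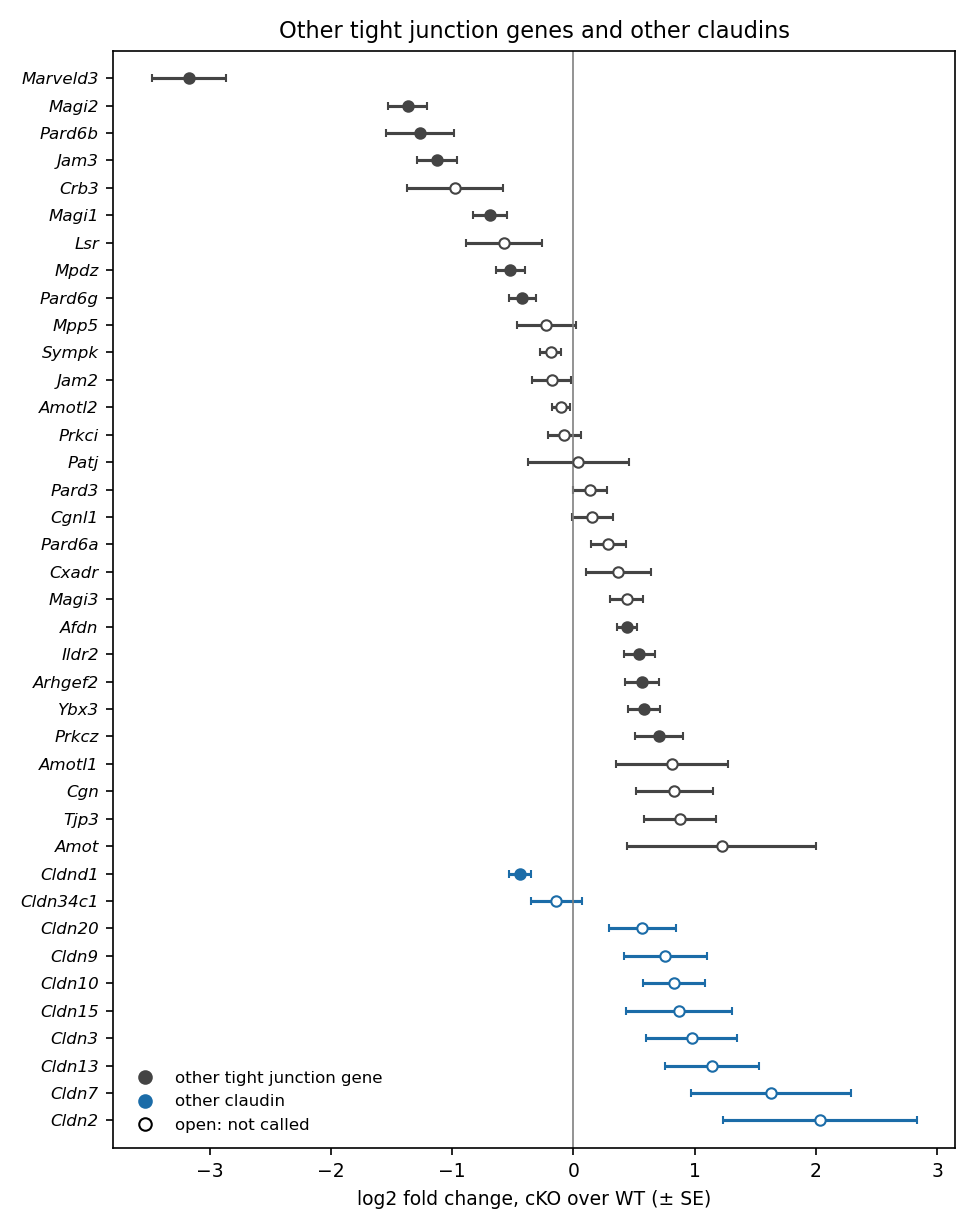
Log2 fold change, cKO over WT, with its SE for 29 of the 30 tested genes of the wider junction complex (dark grey) and the 10 tested other claudins (blue); filled points were called by edgeR. Marveld3 lies farthest to the left (-3.17), and of the other claudins only Cldnd1 (-0.44) is filled.

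The 5 genes that rose were Afdn (afadin, which links nectins to actin, 0.44), Ybx3 (ZONAB, a factor held by ZO-1, 0.58), Arhgef2 (GEF-H1, an activator of RhoA held at junctions, 0.57), Ildr2 (of the angulin family, 0.54) and the atypical protein kinase gene Prkcz (0.70). Each of these changes was smaller than 2-fold, and leaving out any single WT library ended all 5 calls. The call of Prkcz (edgeR adjusted p = 0.0493) held in only 1 of 10 other settings, the fit without cKO replicate 2. Ildr2 also lost its call without cKO replicate 1 or 3, Arhgef2 without cKO replicate 1 and Ybx3 without cKO replicate 3. For Prkcz 14.8% of its 50-base words occur in another gene, Prkcz2, and for Ildr2 11% of its exonic bases overlap an antisense gene. Of the 8 genes that fell, 4, among them Marveld3, Magi2 and Jam3, kept their calls in all 6 fits that left out 1 library. Magi1, Mpdz, Pard6b and Pard6g lost theirs without any 1 WT library. Mpdz also lost its call without cKO replicate 1 or 3, and Pard6b and Pard6g without cKO replicate 3.

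The other marker lists gave this frame, where 8.55% of all genes tested were called higher and 10.3% lower. Fibroblast markers rose in 3 of 8 (Dpp4 1.32, Clec3b 1.08), macrophage markers in 4 of 5 (Cd68 0.99, Mrc1 0.77) and erythroid markers in 4 of 7 (Hbb-bt 2.12). The 5 other fibroblast markers, among them Col1a1 (-0.002), Col1a2 (-0.06) and Pdgfra (0.19), overlapped between groups and were not called. Of 5 neuronal markers 2 rose, Tubb3 (2.09) and Isl1 (1.10), the latter scarce at means of 1.15 CPM in cKO and 0.538 CPM in WT. Nefl (0.62), Stmn2 (0.77) and Snap25 (0.05) overlapped between groups and were not called. Leaving out any single WT library ended the calls of Hbb-bt, Tubb3 and Isl1, and Hbb-bt also missed the threshold without cKO replicate 2 (edgeR adjusted p = 0.073). Of 7 pericyte and smooth muscle markers Pdgfrb fell (-0.47), a call lost without WT replicate 1 or 3, and Kcnj8 had 0.48, not called (edgeR adjusted p = 0.0518) but called without cKO replicate 2 (0.60, edgeR adjusted p = 0.000143). The skeletal muscle genes Myh4 (5.43) and Myog (2.72) were not called (edgeR adjusted p = 0.121 and 0.164). Without cKO replicate 2 they had 1.94 and 0.57, and Myog was called (edgeR adjusted p = 0.0102). Counts of Hbb-bt and Myh4 are uncertain, since 58.3% and 18.9% of their words occur in paralogs.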

How the data were processed

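RNA of sciatic nerve was sequenced in 3 cKO and 3 WT libraries at postnatal day 3, per the labels, from about 150 ng of total RNA each. The authors deposited 1 table of raw fragment counts per gene. Per the file headers, it was made with featureCounts 1.6.1 on exons of Ensembl GRCm38 release 95, counting only pairs aligned at both ends with mapping quality 20 or more, without strand; the same table gives exonic lengths in bases. Subread 2.0 and DESeq2 1.3 are named too, per the submitters' processing notes. Symbols came from GENCODE M21 on the same build (54723 identifiers matched, 115 did not).

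Testing used edgeR 4.0.16 in R 4.3.3: filterByExpr by group (minimum count 10), TMM factors, robust dispersions and the two-sided quasi-likelihood F test with 4 residual degrees of freedom, Benjamini-Hochberg adjusted over 18775 genes. CPM values are TMM-normalised; log2 CPM values used a prior count of 2; TPM used the deposited lengths and no TMM factors. Standard errors and intervals came from the F statistic. The fit was tested on simulated data. Pairs of libraries within a group gave 8.26 to 312 chi-square units per degree of freedom, beyond sampling noise. Each library was counted as 1 replicate, though this spread does not show that the libraries came from separate animals.

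The 9 genes, the lists and the motifs were chosen with earlier results of these data known. Named genes were the 9, Actl6a and Cnp; all called genes and the 4 uncalled ones with the smallest p of the other claudin and other junction lists; up to 2 of each marker list (some results are not reported here); and the 3 profiles closest to Cldn19, Cldn1 and Cldn5. Genes named after their values were seen were Cldn2, Cldn15, Itgb4, Krt8, Krt1, Epcam, Vwf, Tie1, Col1a1, Col1a2, Pdgfra, Nefl, Stmn2 and Snap25. Alternatives were RLE factors, no low-count filter, DESeq2 1.42.0, a replicate block, a prior count of 0.5, unfiltered markers and leaving out each library.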

Additional observations from a re-analysis of the deposited data

How the results depend on the processing

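The replicate numbers showed no sign of pairing. Deviations of same-numbered cKO and WT libraries from their group means correlated at -0.22, -0.23 and -0.08 across 18775 genes. Those of differently numbered libraries correlated at -0.12 to 0.22. With 3 libraries a group this cannot exclude a pairing. With the replicate block, 744 genes were called higher and 1108 lower, against 1605 and 1929 without it; 5 of the wider junction genes were called in place of 13, and 0 of the other claudins in place of 1 by edgeR. The calls of Cldn19, Cldn11 and Cldn12 held in each of 10 settings. Where 1 library was left out, log2 fold changes ran from -2.57 to -2.21 for Cldn19, from -2.75 to -2.21 for Cldn11 and from -1.18 to -0.90 for Cldn12. Leaving out 1 library, genes called higher ran from 449 to 3425 and lower from 790 to 3398, wider junction genes called from 4 to 23 and other claudins called from 0 to 5, each highest without cKO replicate 2; without WT replicate 1, 2 or 3 the wider junction calls were 4 and without cKO replicate 3 they were 7. DESeq2 called 2 of the other claudins. Ocln passed with DESeq2 (0.88) and with no low-count filter (0.88), and Tjp1 likewise (-0.40 and -0.41). In the fits without 1 library, log2 fold changes ran from 0.73 to 1.12 for Ocln, from -0.48 to -0.28 for Tjp1, from 0.16 to 0.59 for Cldn1, from 0.035 to 0.33 for F11r, from -0.13 to 0.040 for Cldn5 and from -0.14 to 1.83 for Marveld2. Signs turned for Cldn5, Marveld2, Cfap43 (-0.14 to 0.058), Por (-0.14 to 0.059) and Usf1 (-0.088 to 0.11), each without cKO replicate 2 and, for Cfap43 (0.0077), Usf1 (0.061) and Cldn5 (0.02), also without WT replicate 3, none of them called, and for Cldn1 relative to perineurial markers (-0.0024 to 0.27), where it turned without cKO replicate 1. The cause was not tested. RLE factors changed no call of the 9 genes but ended that of Prkcz (edgeR adjusted p = 0.0504). Of the 9 genes, Cldn11 in cKO, Ocln and Marveld2 rest on 24 to 170 fragments a library, which limits what could be called. Other named genes were also scarce, among them Marveld3 in cKO (0.343 to 0.729 CPM) and Cldn7 in WT (0.0547 to 0.317 CPM).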
